A study of Mus musculus with 9 samples.

Results

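In single-cell RNA-Seq (scRNA-Seq) of mouse bone marrow (BM), 8 genes of mitosis and DNA replication were followed through the authors' deposited table of top marker genes. The genes were Mki67, Top2a, Kif11, Cenpf, Hmmr, Tubb5, Mcm3 and Cdc25a. They were found by symbol, and all 8 were listed, with 11 of the 293 entries and 8 of the 234 different genes of the table. Their entries stood in 5 of the 17 cell populations, namely Monocyte prog I and II and Immature Neutrophils I, II and III. A population's entry compared its cells with all other cells measured, and the question was which phase of the cell cycle the genes that set these 5 populations apart belong to.

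The cells came from 9 mice of the strain C57BL/KaLwRij, aged 12 weeks per the labels, which accepts the transplanted myeloma line 5TGM1. By label, 3 samples received CST6 (the protease inhibitor cystatin M/E), 3 received PBS (vehicle) and 2 were Control, while 1 carried no agent label and was left unassigned. These numbers are uncertain, since the study had equally large groups and 1 sample labelled PBS has a title that continues the Control numbering, but the pooled values below do not use the groups. In the study, mice of the CST6 and PBS groups had been injected with 5TGM1 cells and Control mice had not, and mononuclear marrow cells were sorted free of GFP-positive myeloma cells before capture. The table pooled all mice, with 0 columns per sample, so there is no replicate error, no test of any difference and no comparison between CST6, PBS and Control here, and the table gives neither depth nor the number of cells in a population.

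A dividing cell copies its DNA in S phase and separates the copies in mitosis (M phase), with the gaps G1 and G2 before and between. Genes for replication, such as those of the MCM helicase, are switched on at the border of G1 and S, and genes for the spindle, the kinetochores and the condensation of chromosomes reach their peak in G2 and M. In marrow, the early precursors of neutrophils and monocytes divide several times while they begin to make the proteins of their lineage, and mature neutrophils no longer divide. Ki-67, the product of Mki67, is the usual marker of cells in cycle.

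Genes of G2 and mitosis were listed for Monocyte prog I and Immature Neutrophils I and II, while Monocyte prog II and Immature Neutrophils III listed genes of G1/S and replication. In Immature Neutrophils I, histone genes, most of which are expressed in S phase, made up 5 of the 8 cell cycle entries, and in Monocyte prog I 3 of 11. Each entry has a log2 fold change of the population over all other cells and an area under the receiver operating characteristic curve (AUC), which is 0.5 where a gene does not separate the cells and 1 where it separates them fully. Over the 11 entries the log2 fold change ran between 1.28 and 2.16, with a median of 1.54, against a median of 2.06 over all 293 entries. The AUC ran between 0.819 and 0.922, with a median of 0.870, against 0.874 over all entries. Of the 11 entries, 8 had a log2 fold change of at least 1.5, against 82.3% of all entries, so their fold changes were not high among all top markers. Within the same 5 populations they were not low. The 65 other entries there had a median log2 fold change of 1.47 and a median AUC of 0.854.

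**Figure D1:**
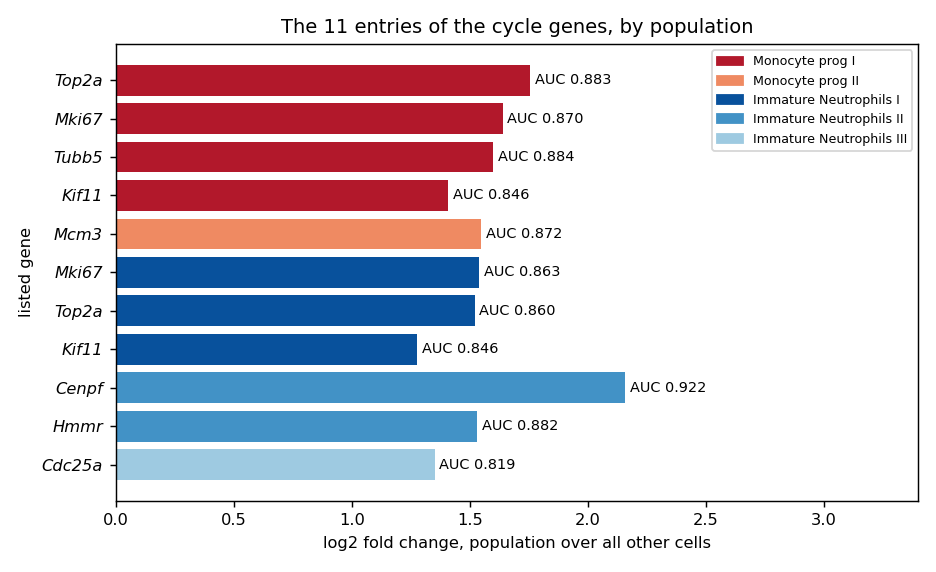
Bars show the log2 fold change (horizontal axis) of each of the 11 entries over all other cells, in the authors' deposited table, coloured by population, with the AUC beside each bar. Cenpf in Immature Neutrophils II has the longest bar, at 2.16, and Kif11 in Immature Neutrophils I the shortest, at 1.28.

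Top2a, Mki67 and Kif11 were the members listed for a pair of populations, Monocyte prog I and Immature Neutrophils I, and the other 5 members had 1 entry each. Top2a codes for topoisomerase II alpha, which untangles the DNA copies so that chromosomes can separate. Its log2 fold change in the authors' deposited table was 1.75 in Monocyte prog I (3.37-fold) and 1.52 in Immature Neutrophils I (2.87-fold), with AUC values of 0.883 and 0.860. Mki67, whose product coats mitotic chromosomes, stood at 1.64 in Monocyte prog I and 1.54 in Immature Neutrophils I, with AUC values of 0.870 and 0.863. Kif11, the kinesin that pushes the spindle poles apart, stood at 1.41 in Monocyte prog I and 1.28 in Immature Neutrophils I, with an AUC of 0.846 in both. By AUC, Top2a was the first of the 3 in Monocyte prog I and Mki67 in Immature Neutrophils I, and Kif11 was the last in both.

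By fold change, all 3 were somewhat higher in Monocyte prog I. The log2 fold change in Monocyte prog I minus that in Immature Neutrophils I was 0.23 for Top2a, 0.13 for Kif11 and 0.10 for Mki67. The difference between the share of cells with a value inside and outside the population went the other way, and was smaller in Monocyte prog I by 0.8 percentage points for Top2a, 1.8 for Kif11 and 0.4 for Mki67. The AUC differed by 0.023 for Top2a, 0.007 for Mki67 and 0 for Kif11. The other cells in each comparison include the other population, and no replicate spread exists against which these differences could be set. The table therefore does not settle which population had the higher level of these genes.

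Monocyte prog I had the most entries of the members, 4 of its 20, which is the same share as 3 of 15 in Immature Neutrophils I. The additional one was Tubb5, a beta-tubulin of the microtubules from which the spindle is built, with a log2 fold change of 1.60 and the highest AUC of the 4, 0.884, in place 4 of the list. In the authors' deposited table the places before it were held by F13a1, Itga1 and Fn1, genes for a coagulation factor, a collagen-binding integrin and fibronectin, with AUC values of 0.902, 0.892 and 0.892. Other mitotic genes of this population were Prc1, which bundles the central spindle, at a log2 fold change of 1.55, Birc5 (survivin, of the chromosomal passenger complex) at 1.44 and Tmpo, a protein of the nuclear lamina, at 1.37. The alpha-tubulin gene Tuba1b stood at 1.47, and the histone genes H1f5, H2ax and H1f4 at 2.00, 1.46 and 1.39. Pclaf, a partner of the replication clamp PCNA that is on none of the lists used here and was picked after its value was seen, stood at 1.60. The counting of reads shared between near-identical tubulin or histone genes was not given in the sources used here.

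Immature Neutrophils I listed Mki67, Top2a and Kif11 in places 5, 6 and 7 of its 15 genes by AUC. They were the 3 mitotic genes of the list, and 5 histone genes stood beside them in the authors' deposited table, the core histone genes H3c3, H4c4 and H2ac8 at log2 fold changes of 1.80, 1.75 and 1.30 and the linker histone genes H1f4 and H1f5 at 1.46 and 1.37. Histone genes of this kind are expressed during S phase, and H3c3 and H4c4, with AUC values of 0.899 and 0.880, stood above all 3 mitotic genes by AUC and by fold change. The list was led by Chil3, a chitinase-like protein of neutrophil precursors, at an AUC of 0.903 and a log2 fold change of 1.66. H1f4 was the gene whose pattern was most like that of Mki67, Top2a and Kif11, listed for the same 2 of 17 populations, followed by H1f5 with 2 of the 3 populations that list either gene.

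In Immature Neutrophils II, Cenpf held the first place of 15, with a log2 fold change of 2.16 (4.46-fold) and an AUC of 0.922 in the authors' deposited table, the highest values of all 11 member entries. Cenpf codes for a large protein that joins the kinetochores in G2 and mitosis. The study gives Camp and a gene printed as Cenbf, probably Cenpf, as its markers of this population. The first place of Cenpf is thus not independent of how the population was described. Hmmr, which codes for a hyaluronan-binding protein that organises the spindle poles, held the third place at 1.53 and an AUC of 0.882, behind the granule gene Camp at an AUC of 0.888. The other mitotic genes of this list act at kinetochores, in anaphase and in the final separation of the cells. Cenpe, the kinetochore motor, stood at a log2 fold change of 1.49, Cdc20, which activates the ligase that starts anaphase, at 1.38, Cenpa, the histone variant of centromeres, at 1.37 and Kif20b, a kinesin of that last step, at 1.31. The alpha-tubulin gene Tuba4a stood at 1.34. Immature Neutrophils II listed 0 histone genes and shared 0 cell cycle genes with Immature Neutrophils I or with Monocyte prog I. It shared 4 genes with Immature Neutrophils I, all outside the cell cycle lists, and 0 genes of any kind with Monocyte prog I. The 0 shared cell cycle genes with Monocyte prog I are thus not particular to the cell cycle. A gene that is missing from a list was not among its top entries, and its level in that population is unknown.

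Cdc25a and Mcm3, the members that act at G1/S and in replication, were listed for the remaining populations. Cdc25a codes for a phosphatase that activates the cyclin-dependent kinases at the start of S phase. It held the third of 6 places in Immature Neutrophils III, with a log2 fold change of 1.35 (2.55-fold) and the lowest AUC of the 11 entries, 0.819. Lig1, the DNA ligase that joins the fragments of the lagging strand, was listed there too, in the last place, at a log2 fold change of 1.30 and an AUC of 0.803. Mcm3, a subunit of the MCM helicase that unwinds DNA at replication forks, held the seventh of 20 places in Monocyte prog II in the authors' deposited table, with a log2 fold change of 1.55 (2.93-fold) and an AUC of 0.872. It was the single cell cycle gene of that population, next to Npm1 at 1.71, Rps2 at 1.49 and Ncl at 1.46, genes for ribosomes and the nucleolus. Npm1, Rps2 and Ncl are on none of the lists used here and were picked after their values were seen.

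**Figure D2:**
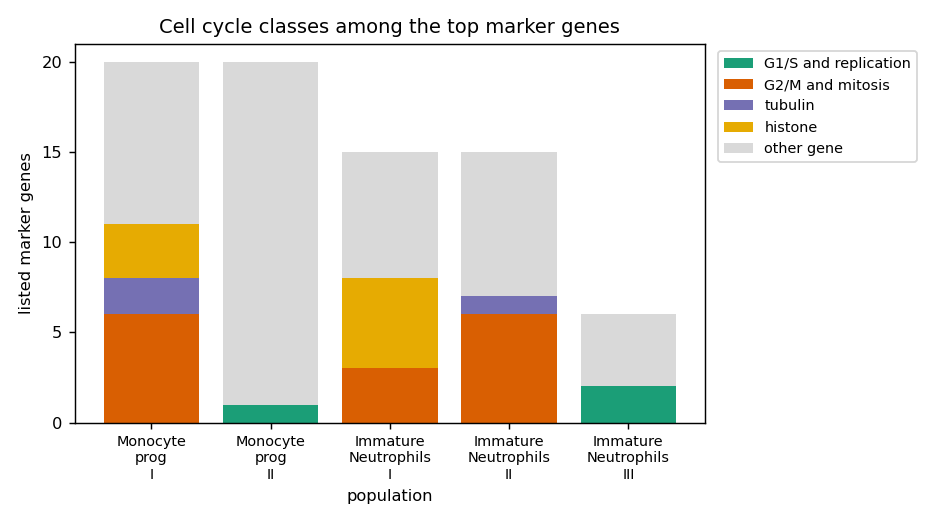
Stacked bars count the listed marker genes (vertical axis) of each population by cell cycle class. Mitotic genes number 6 in Monocyte prog I, 3 in Immature Neutrophils I and 6 in Immature Neutrophils II, and replication genes 1 in Monocyte prog II and 2 in Immature Neutrophils III.

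In the wider cell cycle lists, mitotic and replication genes were not listed for the same population, while histones stood beside mitotic genes in Monocyte prog I and Immature Neutrophils I. This separation depends on the lists. Pclaf, the partner of the replication clamp that is on none of them, stood beside mitotic genes in Monocyte prog I. Of 79 genes of G1/S and replication, 3 were listed, Cdc25a, Mcm3 and Lig1. Of 93 genes of G2 and mitosis, 12 were listed, and of 11 tubulins and microtubule regulators 3. Together with histones these made 30 of the 293 entries (10.2%). By population they were 55% of the entries of Monocyte prog I, 53.3% of Immature Neutrophils I, 46.7% of Immature Neutrophils II, 33.3% of Immature Neutrophils III and 5% of Monocyte prog II. The share in Monocyte prog II was thus below that of the whole table. In the 12 other populations, 1 of 217 entries (0.461%) was of this kind, H1f5 in Pre/pro B cells. With histones not counted as cell cycle genes, the share in Immature Neutrophils I was 20%, or 3 of all its 15 entries. With only 6 entries in Immature Neutrophils III and 1 cell cycle gene in Monocyte prog II, their placement at G1/S rests on very few genes.

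Lineage genes matched the population names in 4 of the 5 lists, with Monocyte prog II as the exception. Of 16 secondary granule and neutrophil genes, 5 were listed for Immature Neutrophils I, 6 for II and 2 for III, and 0 for either monocyte progenitor. Of 16 monocyte and macrophage genes, 4 were listed for Monocyte prog I (F13a1, Itga1, Fn1 and Ms4a6c) and 1, F13a1, for Monocyte prog II. Monocyte prog II instead held 4 of 10 genes of the primary granule and early progenitor list, Prtn3, Mpo, Ctsg and Elane. Of the same list, Cd63 was listed for Immature Neutrophils III. Of 17 marker genes of red cells, megakaryocytes, plasma cells, lymphocytes, dendritic cells and stroma, 0 were listed for any of the 5 populations. The clusters were named by the authors from genes of this kind. The study gives Camp as a marker of each Immature Neutrophils cluster, with Chil3 for I and Fcnb for III. It gives F13a1 and Itga1 for Monocyte prog I and Prtn3 for Monocyte prog II. These genes are among those counted here, so the match is not independent of how the clusters were named.

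In Immature Neutrophils I, the cell cycle genes had a median log2 fold change of 1.49, against 1.56 for the 7 other genes of the list. In Immature Neutrophils II the medians were 1.38 for cell cycle genes and 1.34 for the 8 others, and in Monocyte prog I they were 1.47 and 1.60. Their median AUC was 0.853 against 0.842 in Immature Neutrophils I, 0.864 against 0.845 in Immature Neutrophils II and 0.848 against 0.872 in Monocyte prog I. By AUC the cell cycle genes stood above the rest of the list in Immature Neutrophils I and II and below it in Monocyte prog I, by at most 0.024 in these populations. In Immature Neutrophils III the 2 cell cycle genes stood at 0.811 against 0.845. In Monocyte prog II the 1 cell cycle gene stood at 0.872 against 0.861.

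Values of the members were also widespread among the other cells, which for each population include the 4 others that list a member. For Mki67, 99.9% of the cells of Monocyte prog I had a value above 0, against 85.7% of all other cells. In Immature Neutrophils I this was 99.9%, against 85.3% of all other cells. Since the share over all cells cannot lie below the share of the other cells, at least 85.7% of all cells had a value for Mki67, at least 82.8% for Cenpf and at least 80.2% for Top2a. Hmmr had the lowest such bound, 67.9%. In the population, the share was 99.1% for Cenpf and 96.3% for Hmmr in Immature Neutrophils II, against 82.8% and 67.9% of all other cells. Cdc25a had a value in 93.2% of Immature Neutrophils III, against 72.9% of all other cells, and Mcm3 in 96.9% of Monocyte prog II, against 77.3% of all other cells.

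**Figure D3:**
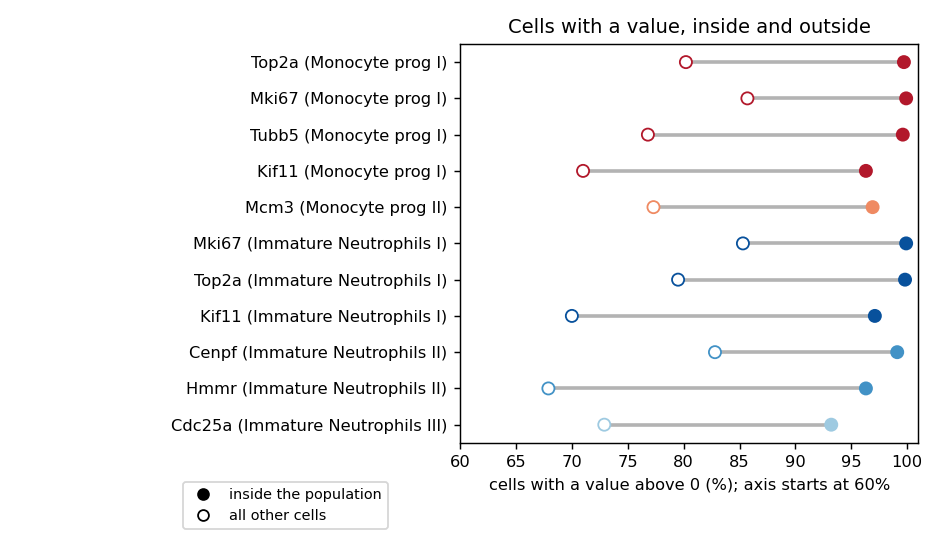
The horizontal axis gives the percentage of cells whose value exceeded 0, as filled points for the population and open points for all other cells, for each of the 11 entries. The filled points lie between 93.2% and 99.9% and the open points between 67.9% and 85.7%.

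In all 11 entries more than 67.5% of the other cells had a value, which is the median over the table and was exceeded by 146 of the 293 entries. High shares outside were not particular to the members. Their median was 77.3%, against 73.5% for the 65 other entries of the same populations. Neither the labels nor the methods state whether these shares came from UMI counts or from values integrated across samples, which can be above 0 in cells with no UMI of the gene. The shares are therefore not shares of dividing cells, and a value above 0 is not read here as a sign of cycling. Which values the fold changes and AUC were taken from is not stated either. The folds given above are therefore not read here as ratios of transcript numbers. Ordered by the difference between the shares inside and outside, Hmmr came first, at 28.4 percentage points, with Kif11 next at 27.1 in Immature Neutrophils I and 25.3 in Monocyte prog I. Cenpf, first by fold change and by AUC, then held place 9 of 11 with 16.3 points, and Mki67 had the lowest differences, 14.6 in Immature Neutrophils I and 14.2 in Monocyte prog I.

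**Figure D4:**
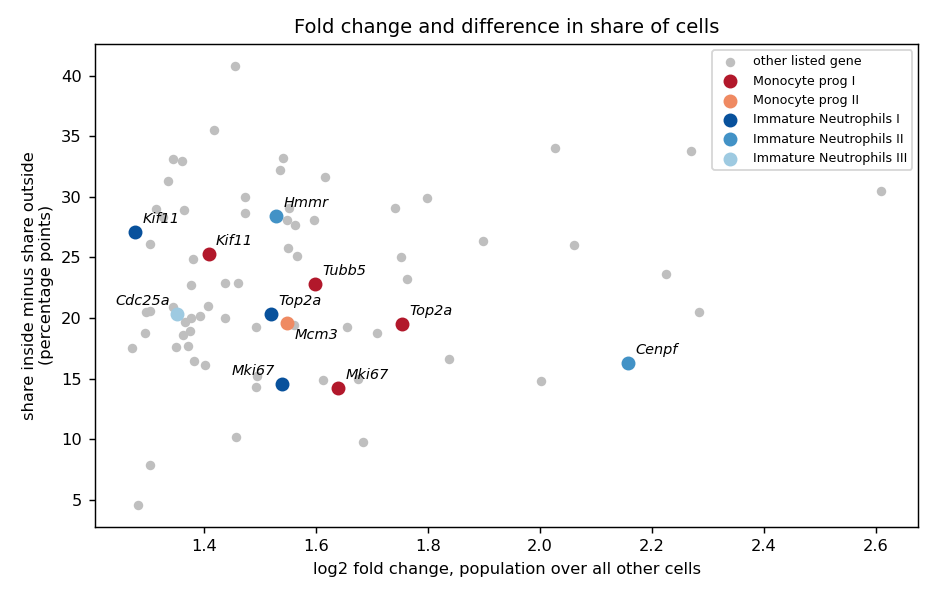
Each point is a listed gene of the 5 populations, with its log2 fold change (horizontal axis) and the share of cells inside minus that outside the population (vertical axis, percentage points). Members are coloured by population; Cenpf lies far to the right at 16.3 points and Hmmr highest of the members at 28.4 points.

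The 8 genes lie on 6 chromosomes and all are annotated as protein coding. In mm10, Top2a lies at chr11:98992943-99024189, Mki67 at chr7:135689784-135716361, Kif11 at chr19:37376403-37421859 and Cenpf at chr1:189640606-189688086. Hmmr lies at chr11:40701395-40733422, Tubb5 at chr17:35833921-35838306, Mcm3 at chr1:20802968-20820312 and Cdc25a at chr9:109875579-109893895. The libraries read the 3' ends of transcripts. Since the members fell into a mitotic and a replication class, their promoters were searched for the motifs known from each class. Windows of 300 bases, with 250 before and 50 after the start of transcription, came from RefSeq on GRCm38.p6, and all 8 members matched.

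The motifs were searched on both strands. The first was the CCAAT box bound by NF-Y. The second was the cell cycle homology region (CHR), TTTGAA or TTCGAA, through which the DREAM and MuvB complexes act on genes of G2 and mitosis. The third were letters bound by E2F factors, which act on genes of G1/S, written TTGGCGC, with the accepted forms TTCCCGC, likewise TTCGCGC, and lastly TTGCCGC. E2F matches can overlap each other where the letters are palindromic. The promoters of Top2a, Mki67 and Cenpf are given here for the mitotic class and those of Mcm3 and Cdc25a for the replication class, on the strand of the gene, with all matches to the 3 motifs in capitals.
Top2a promoter (GRCm38.p6 chr11:99024140-99024439, minus strand): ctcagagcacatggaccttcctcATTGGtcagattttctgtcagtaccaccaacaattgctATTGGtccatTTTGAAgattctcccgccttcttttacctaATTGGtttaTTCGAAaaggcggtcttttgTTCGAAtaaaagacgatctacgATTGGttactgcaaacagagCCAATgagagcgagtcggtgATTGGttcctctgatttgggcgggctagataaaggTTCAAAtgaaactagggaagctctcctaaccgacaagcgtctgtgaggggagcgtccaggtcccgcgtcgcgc
Mki67 promoter (GRCm38.p6 chr7:135716330-135716629, minus strand): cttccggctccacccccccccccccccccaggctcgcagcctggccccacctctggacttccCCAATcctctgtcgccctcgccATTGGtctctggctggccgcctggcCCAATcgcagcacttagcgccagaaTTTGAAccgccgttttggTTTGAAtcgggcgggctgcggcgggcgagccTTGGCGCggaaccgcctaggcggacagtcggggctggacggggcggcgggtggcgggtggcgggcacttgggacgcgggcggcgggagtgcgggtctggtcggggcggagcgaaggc
Cenpf promoter (GRCm38.p6 chr1:189688037-189688336, minus strand): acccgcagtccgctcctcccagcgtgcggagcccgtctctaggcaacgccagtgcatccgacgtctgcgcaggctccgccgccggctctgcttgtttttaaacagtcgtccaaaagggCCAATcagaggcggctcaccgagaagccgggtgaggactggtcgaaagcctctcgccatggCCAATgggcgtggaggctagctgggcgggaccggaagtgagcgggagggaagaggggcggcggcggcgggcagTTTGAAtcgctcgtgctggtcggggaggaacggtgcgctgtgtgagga
Mcm3 promoter (GRCm38.p6 chr1:20820263-20820562, minus strand): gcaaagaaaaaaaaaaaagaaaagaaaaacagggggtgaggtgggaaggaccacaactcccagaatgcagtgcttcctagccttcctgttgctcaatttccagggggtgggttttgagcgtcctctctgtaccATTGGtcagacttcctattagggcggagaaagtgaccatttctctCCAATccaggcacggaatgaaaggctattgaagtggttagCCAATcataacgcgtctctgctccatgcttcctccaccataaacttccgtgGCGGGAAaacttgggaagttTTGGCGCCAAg
Cdc25a promoter (GRCm38.p6 chr9:109875329-109875628, plus strand): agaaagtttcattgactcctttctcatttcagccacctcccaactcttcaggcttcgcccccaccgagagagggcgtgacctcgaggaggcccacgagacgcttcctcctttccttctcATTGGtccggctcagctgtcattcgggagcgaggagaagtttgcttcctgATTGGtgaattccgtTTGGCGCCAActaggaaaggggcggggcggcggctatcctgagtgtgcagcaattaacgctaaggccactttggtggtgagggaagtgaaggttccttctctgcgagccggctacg

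The CHR letters were present in the promoters of all 5 mitotic members, with 4 matches in Top2a, 2 in Mki67 and 1 each in Kif11, Cenpf and Hmmr, and in none of Mcm3, Cdc25a and Tubb5. Of all 32851 promoters of this length, 19.2% held them. The E2F letters were present in both replication members, with 3 matches in Mcm3 and 2 in Cdc25a, of which 2 in each gene overlap in a palindrome. They were also present in Mki67, Hmmr and Tubb5, with 1 match each, against 9.57% of all promoters. The CCAAT box was found in all 8, with 6 matches in Top2a, 5 in Hmmr and 1 in Kif11, against 37.4% of all promoters.

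Among the 12 listed genes of G2 and mitosis, 10 held the CHR letters and 3 the E2F letters, while of the 3 listed genes of G1/S and replication 0 held the CHR letters and 3 the E2F letters. Over the whole lists, including genes that were not listed as markers, the CHR letters stood in 58 of 78 promoters of G2 and mitosis genes (74.4%) and in 13 of 62 promoters of G1/S and replication genes (21%). The E2F letters stood in 19 (24.4%) and 42 (67.7%) of them. Between the mitotic and the replication class, the letters thus go with the class of the genes and are not particular to those listed here. The listed histone genes, most of them expressed in S phase, did not follow the replication class. Of their 5 promoters, 4 held the CHR letters and 1 the E2F letters. A match describes the sequence only and does not show that a factor was bound in these cells.

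**Figure D5:**
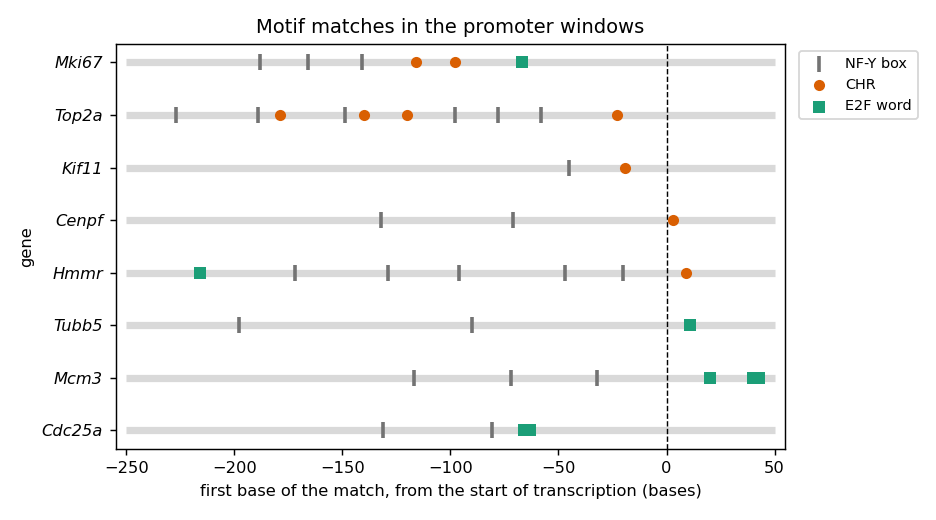
Marks show where each motif match begins in the promoter window of each gene (horizontal axis, bases from the start of transcription, which is the dashed line). Grey ticks are CCAAT boxes (NF-Y). Orange CHR marks occur in the 5 mitotic genes at the top, and green E2F marks in Mki67, Hmmr, Tubb5, Mcm3 and Cdc25a.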

How the data were processed

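Per the labels and the study's methods, mononuclear marrow cells depleted of GFP-marked myeloma cells were captured with Chromium 3' chemistry (v3.1). Cell Ranger, Seurat 4 and the build mm10 are named in the submitters' processing notes. The methods describe filtering of cells, integration of samples by reciprocal principal component analysis and Louvain clustering. They name MAST for the marker search, but the columns are those of Seurat's receiver operating characteristic test. No source used here says how doublets were handled.

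The 1 table holds, per population and with all mice pooled, the authors' AUC and power as deposited scores, the deposited natural log difference and log2 fold change, and the fractions of cells above 0 in the population and elsewhere. These are the authors' own comparisons of populations, no population had more than 20 entries, and the lowest AUC was 0.801. Entries of the 8 members were taken by symbol and described, with no test. Cell cycle genes were counted by lists of G1/S and replication genes, G2 and mitosis genes, tubulins and histones. The text names all entries of the members, the listed cell cycle genes of the same populations, some of their lineage genes and the genes most like a member by shared populations. Pclaf, Npm1, Rps2 and Ncl are named from outside these sets. Members and lists were chosen with earlier results of these data known. The motif search was tested on simulated sequences with planted motifs. Gene positions came from GENCODE M21. Alternatives were shorter lists, other list definitions and other measures. Python 3.11.15, pandas 2.3.3 and numpy 2.4.6 were used.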

Additional observations from a re-analysis of the deposited data

How the results depend on the processing

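Of 41 values recomputed under other settings, 26 kept their direction and stayed within 1.5 times. Some of these 26 could not change. Histones or tubulins were left out of the count for lists that held none, and the list of Immature Neutrophils III has fewer than 10 entries. The count is therefore no measure of stability. With histones not counted as cell cycle genes but kept among the entries, the share of Immature Neutrophils I was 20% in place of 53.3%. With the 10 entries of highest AUC or of highest log2 fold change, the share in Monocyte prog II was 10% in place of 5%, because the list was shorter. The surplus of mitotic over replication genes in Monocyte prog I was 3 in place of 6 with the 10 entries of highest AUC, and also 3 among entries with a log2 fold change of at least 1.5. At that threshold it was 2 in place of 6 in Immature Neutrophils II, and 0 in place of -2 in Immature Neutrophils III, as no cell cycle gene was left there. The value in Monocyte prog I minus that in Immature Neutrophils I reversed when the difference of the shares inside and outside replaced the log2 fold change, to -0.8 percentage points for Top2a, -0.4 for Mki67 and -1.8 for Kif11, and by AUC it was 0 for Kif11. The cause was not tested. Among the 11 entries, Cenpf held place 9 by the difference of the shares in place of 1, and Hmmr place 4 by AUC and place 1 by the difference of the shares in place of 7. With a further T before the E2F letters, 2 members in place of 5 had a match, since a longer word matches less often. No paired analysis was possible because the table holds no values per sample. For the same reason no sample could be left out in turn. The table gives neither depth nor cells per population, so no interval is given.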
